A study of Mus musculus with 10 samples.

Results

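The genes examined here are 10 membrane repair genes and annexins, taken by name from a table of 21098 genes: Dysf, Myof, Trim72, Capn3, Anxa1, Anxa2, Anxa4, Anxa5, Anxa6 and Anxa7. Gastrocnemius (GAS), a calf muscle, was taken from male wild-type C57BL/6J mice with diet-induced obesity, given a high-fat diet from 9 weeks of age, for 9 weeks before dosing, and aged 30 weeks in the series description, which is less than these times and the dosing add up to. Of these, 5 libraries came from mice injected subcutaneously once a week with 10 mg/kg of the anti-miR-22 antisense oligonucleotide (ASO, labelled RES-010) for 14 weeks, and 5 from controls injected with saline over the same time (CTRL). The controls received no oligonucleotide of another sequence, the ASO reached the whole animal and not the muscle alone, and all mice were obese. The labels number the libraries within each group without saying that each came from a separate animal, so p-values measure the spread between these libraries.

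Contracting muscle fibres tear their plasma membrane, and calcium entering through the tear starts its repair. Dysferlin (Dysf) and the related ferlin myoferlin (Myof) are calcium-binding proteins that help vesicles fuse with the damaged membrane, TRIM72 (also called MG53) gathers vesicles at the wound, and calpain-3 (Capn3) is a muscle protease. Annexins bind acidic phospholipids when calcium rises and build a cap over the injured site, and loss of dysferlin or calpain-3 causes limb-girdle muscular dystrophy in humans.

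The ASO is directed against miR-22, so the question for each gene is whether its transcript level differed between treated and control muscle and whether its 3′UTR holds a match to the miRNA. The mature miRNA (RefSeq) is printed with its seed, bases 2 to 8, in capitals, and the single match among the 10 genes with that match in capitals, since these 2 sequences show where pairing could occur.
miR-22-3p: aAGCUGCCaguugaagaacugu
Anxa7 site: ggctagctggtGGCAGCTgttagtaatgaa
The match GGCAGCT lies in the longest annotated 3′UTR of Anxa7 at chr14:20505973-20505979 (GRCm39, minus strand), 626 bp before the end of a 2432 bp 3′UTR, in a printed window of 30 bases. No adenine stands opposite the first base of the miRNA, and the site is outside the segments on which the gene was counted. In the longest 3′UTRs of Dysf, Myof, Trim72, Capn3, Anxa1, Anxa2, Anxa4, Anxa5 and Anxa6, which are 696 to 4574 bp long, the heptamer was found 0 times on the transcribed strand. Over all genes with an annotated 3′UTR the heptamer was present in 23.1%, and over the genes that were tested in 32.2%.

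What was counted sets which of these genes have a value. The authors restricted counting to the last 500 bp of annotated 3′UTRs, one segment for each transcript, and the counts of a gene's segments were summed here. Across the table, 11523 segments have the same coordinates as another and hold 0 counts. The 10 members have 45 segments, of which 34 have no base outside another segment, and together these 34 hold 1 count. Dysf has 12 segments and Anxa6 has 2, all without a base of their own, and both genes are listed at 0 counts in all 10 libraries. The 9 segments of Capn3 overlap each other and those of Gm52968, a gene annotated on the same strand, and Capn3 has 1 count, in CTRL replicate 3. Myof has 192 bp of its own on 1 of 6 segments (chr19:37887484-37887675, minus strand) and 0 counts, where a count of 3 would have been 1.14 to 1.87 CPM (counts scaled to a library of 1e6) depending on the library. The zeros of Dysf and Anxa6 therefore give no level, and that of Myof applies to 1 transcript end.

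**Figure D1:**
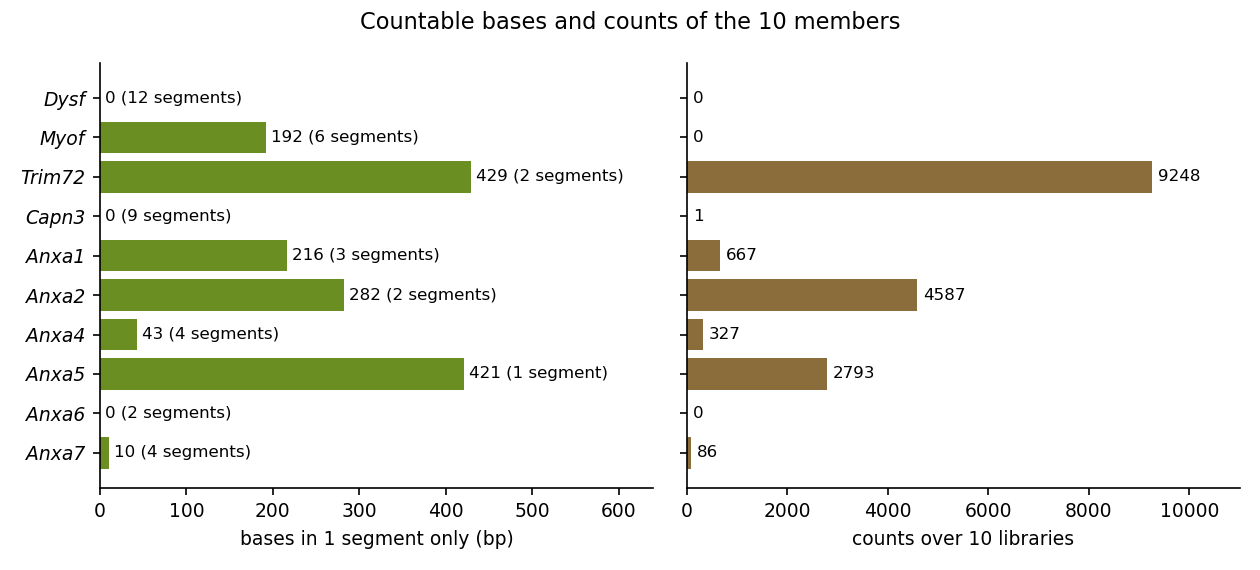
Left, bases (bp) that lie in a single counted segment, summed over the segments of each gene, with the number of segments in parentheses; right, counts summed over the 10 libraries. Dysf, Capn3 and Anxa6 have 0 bp of their own and at most 1 count, while Trim72 has 429 bp and 9248 counts.

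Of the 10 genes, 7 had a count and 6 passed the filter on low counts: Trim72, Anxa1, Anxa2, Anxa4, Anxa5 and Anxa7. None was higher with the ASO and 2 were lower, Trim72 and Anxa5, at a Benjamini-Hochberg adjusted p-value under 0.05 over 7813 genes, from the quasi-likelihood test of edgeR, which gives all adjusted p-values unless another test is named. Over all genes tested, 29.2% were called, 11.8% higher and 17.4% lower. The median log2 fold change was −0.70 over the 6 members tested and −0.03 over all genes tested. In bulk muscle, fewer cells of a type and less RNA per cell cannot be told apart.

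Libraries held 1606909 to 2116720 counts in CTRL and 2239186 to 2632560 with the ASO, and no treated library was as shallow as any control. Levels are CPM after TMM scaling, with SDs over 5 libraries. The muscle fibre list had counts for 7 of 8 markers with Tnnt3 at 0, and its summed level was 38950 to 75740 CPM in CTRL and 80690 to 118000 CPM under the ASO, without overlap. This level came mostly from Acta1 and Ckm, and the myosin heavy chains Myh1, Myh2 and Myh4 had 1, 7 and 42 counts in all, so fibre type could not be read from them. CTRL replicate 3 stood apart, with the lowest fibre sum of the 10 libraries and the highest macrophage, fibroblast and adipocyte sums.

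Trim72, which encodes the muscle-enriched E3 ligase that gathers vesicles at membrane wounds, fell by 0.72 on the log2 scale. The 5 CTRL libraries had 616, 629, 419, 613 and 496 CPM in the order of their numbers. With the ASO they had 341, 374, 273, 434 and 262 CPM. The groups overlapped only in that ASO replicate 4 lay above CTRL replicate 3, and the other 4 CTRL libraries were above every treated one. The means were 554 ± 92.8 CPM in CTRL and 337 ± 71.6 CPM under the ASO (SD over 5 libraries), a decrease to 0.607 of the control level (standard error, SE, 0.18 on the log2 scale, adjusted p = 0.00958 by edgeR). The decrease remained past the threshold in all 22 alternative fits, including each library left out, with log2 fold changes between −0.88 and −0.62. Without CTRL replicate 3 it was −0.81.

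Trim72 was counted on 2 overlapping segments of its 3′UTR on the plus strand of chromosome 7, a 500 bp segment at the most distal end (chr7:127609706-127610205) with 86.1% of the counts and a 215 bp segment 357 bp upstream of that end (chr7:127609634-127609848). Both lie wholly within annotated UTR. In a fit of single segments the distal one had a log2 fold change of −0.61 (SE 0.18, adjusted p = 0.0164) and the upstream one −1.09 (SE 0.19, adjusted p = 6.2e-04 by edgeR). The share of Trim72 counts on the upstream segment was 15.5, 13.8, 17.2, 16.6 and 15.1% in CTRL and 14.7, 12.2, 10.2, 10.0 and 11.5% with the ASO. The mean share was 15.6% ± 1.34 for CTRL and 11.7% ± 1.90 for treated libraries (SD over 5 libraries, exact permutation test, two-sided, p = 0.0159), and the ranges overlapped in ASO replicate 1 and CTRL replicate 2.

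These segment values are to be read against the whole table, where position moved with treatment. Of 10652 segments tested, 40.6% were called, and 24.7% were lower. At the most distal end of a gene 25.2% of segments were higher and 4.37% lower, whereas 1000 bp or more upstream of that end 5.43% were higher and 53.7% lower. The median log2 fold change was 0.30 at the most distal end, −0.18 less than 1000 bp upstream of it and −0.86 beyond that. Of the 3 member segments tested at the most distal end of their gene, those of Trim72 and Anxa5 were lower and that of Anxa2 was not past the threshold. The upstream Trim72 segment moved in the direction of the table as a whole, and the part of this shift in its value was not tested.

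**Figure D2:**
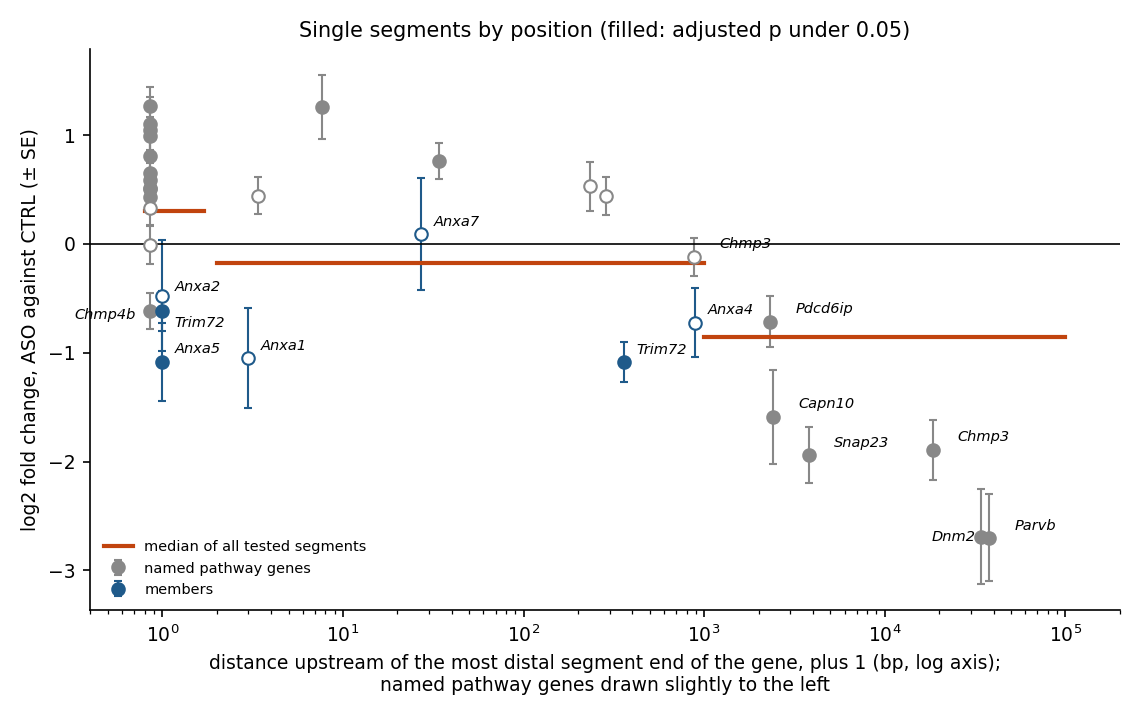
Log2 fold change (ASO against CTRL, ± SE) of each tested segment of the members (blue) and of the named pathway genes (grey), against its distance in bp upstream of the most distal segment end of the gene, on a log axis; filled points had an adjusted p-value under 0.05, and orange lines are medians of all tested segments at that distance. The distal Trim72 segment (−0.61) and the Anxa5 segment (−1.08) lie below the median of 0.30 for that position, and segments of Parvb and Dnm2 far upstream lie near −2.7.

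Anxa5 binds phosphatidylserine on membranes exposed to calcium and forms ordered arrays at torn edges. Its single segment is 421 bp of 3′UTR (chr3:36503072-36503492, minus strand) that no other segment touches. CTRL libraries had 115, 125, 401, 165 and 123 CPM and treated libraries 106, 96.9, 65.1, 112 and 48.1 CPM. Every treated library was below every control, a pattern seen for 13.4% of all genes tested (the reverse for 7.97%), although the nearest values, 115 and 112 CPM, were close. The means were 186 ± 122 CPM in CTRL and 85.6 ± 27.6 CPM under the ASO (SD over 5 libraries), a log2 fold change of −1.12 (SE 0.36, adjusted p = 0.0344 by edgeR). An exact permutation test of log2(CPM + 1), two-sided, gave p = 0.00794, the smallest it can give with 5 against 5. Without CTRL replicate 3, at 3.04 times the mean of the other 4 controls, the CTRL mean was 132 ± 22.6 CPM, the log2 fold change −0.63 and the adjusted p 0.0666, no longer past the threshold. Leaving out ASO replicate 2, 3 or 5 or CTRL replicate 4 also took it to an adjusted p of 0.0543 to 0.0915, with log2 fold changes of −1.16 to −0.96.

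Anxa1 and Anxa2 showed the same library standing apart and were not past the threshold. Anxa1, a glucocorticoid-regulated, anti-inflammatory protein abundant in myeloid cells, had 19.8, 23.3, 107.7, 41.3 and 28.1 CPM in CTRL and 22.2, 23.8, 19.5, 30.5 and 7.55 CPM under the ASO. Its log2 fold change was −1.08 (SE 0.47, adjusted p = 0.0995 by edgeR), and −0.43 (adjusted p = 0.368) without CTRL replicate 3. The groups overlapped, and 4 of the 5 treated libraries lay within 19.5 to 30.5 CPM, where 3 of the controls also lay. Its counts fell on 1 segment (chr19:20350794-20351293, minus strand), of which 341 of 500 bp are annotated UTR. The bases that lie in no other segment are 216 bp (chr19:20351078-20351293), and most of these are outside the annotated UTR. The gene 1500015L24Rik is annotated on the opposite strand there. The authors' methods name no strand option, so reads of the pair cannot be told apart.

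Anxa2 binds membranes as a complex with S100a10 and links them to actin. It had 95.7, 169.7, 710, 184.7 and 122 CPM in CTRL and 199.9, 136.8, 159.4, 321 and 81.1 CPM under the ASO, on a 290 bp segment (chr9:69398788-69399077, plus strand). Control replicate 3 was at 4.97 times the mean of the other controls, and the other 4 controls lay within the range of the treated libraries, of which ASO replicates 1 and 4 were above them. The log2 fold change was −0.51 (SE 0.52, adjusted p = 0.484 by edgeR), and without CTRL replicate 3 it turned to 0.33 (adjusted p = 0.505).

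**Figure D3:**
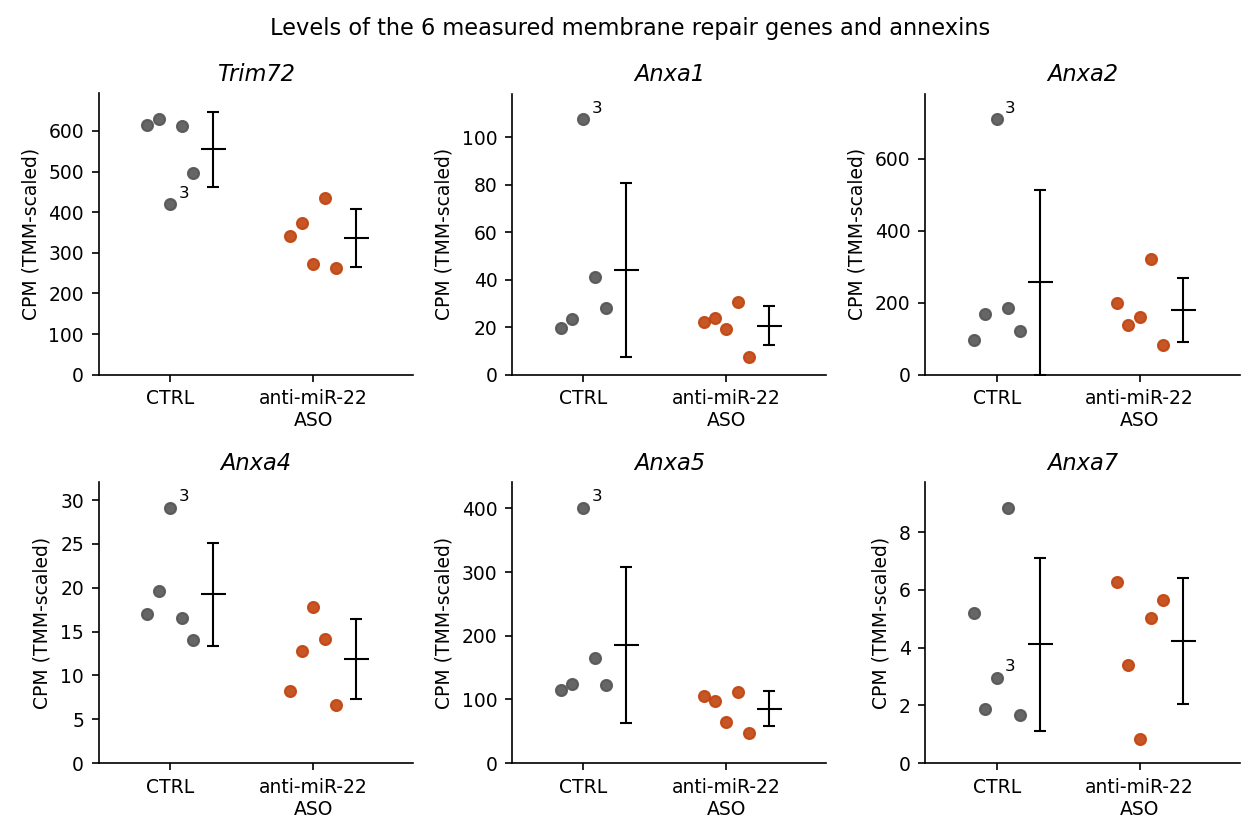
CPM of the 6 measured members in each library, CTRL in grey and anti-miR-22 ASO in orange, with the mean and SD (n = 5) beside the points; 3 marks CTRL replicate 3. CTRL replicate 3 is the highest library for Anxa1 (107.7 CPM), Anxa2 (710 CPM), Anxa4 (29.1 CPM) and Anxa5 (401 CPM) and the lowest control for Trim72 (419 CPM).

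Anxa4, an annexin abundant in epithelia, had 17.0, 19.6, 29.1, 16.5 and 14.0 CPM in CTRL and 8.21, 12.8, 17.8, 14.2 and 6.60 CPM under the ASO. All controls but replicate 5 were above 4 of the 5 treated libraries, and the groups overlapped through ASO replicates 3 and 4. The log2 fold change was −0.69 (SE 0.29, adjusted p = 0.097 by edgeR). Of its 327 counts, 89.6% lay on a 36 bp segment (chr6:86714710-86714745, minus strand) 888 bp upstream of the most distal end, within the span of Gm44036 on the opposite strand.

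Anxa7, an annexin that promotes membrane fusion and the gene with the seed match, had 86 counts in all. They lay on a segment with 9 bp of its own (chr14:20505354-20505853, minus strand). CTRL libraries had 5.19, 1.86, 2.96, 8.85 and 1.69 CPM and treated ones 6.28, 3.40, 0.846, 5.01 and 5.66 CPM. The lowest and the next to highest values both came from treated libraries, and the log2 fold change was 0.05 (SE 0.53, adjusted p = 0.952 by edgeR). With this SE, even a change as large as the −1.08 of Anxa1 (SE 0.47, not past the threshold) could have been missed in either direction.

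Levels of different genes compare only per length, and 4 members had at least 200 bp of their own. Per kb of such bases, the mean levels in CTRL were 1292 ± 216 CPM for Trim72, 909 ± 908 for Anxa2, 441 ± 289.8 for Anxa5 and 204 ± 169 for Anxa1 (SD, n = 5). With the ASO the order was the same, at 785 ± 167, 637 ± 318, 203 ± 65.6 and 95.8 ± 38.9 CPM per kb. The Anxa1 values rest on 216 bp that are mostly outside annotated UTR. Trim72 and Anxa2 lay within 1 SD (the larger of the pair) of each other in both groups, as did Anxa2, Anxa5 and Anxa1 in CTRL. A read pair longer than a short stretch makes this scale approximate.

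Anxa1, Anxa2 and Anxa5 varied together between libraries of one group. After subtracting group means of log2(CPM + 1), Pearson's r over 10 libraries was 0.959 for Anxa1 and Anxa5 (Spearman's rho 0.976), 0.931 for Anxa1 and Anxa2 (rho 0.830) and 0.931 for Anxa2 and Anxa5 (rho 0.903). By exact permutation within groups, the raw p-values were 2.8e-04, 0.0016 and 0.00174 for r and 6.2e-04, 0.00812 and 0.00229 for rho. Adjusted over the 15 pairs of members, they were 0.00417, 0.00868 and 0.00868 for r and 0.00937, 0.0406 and 0.0172 for rho. Without the 2 libraries farthest from the median r was 0.894, 0.831 and 0.791, and without CTRL replicate 3 it was 0.912, 0.845 and 0.816. For Trim72, r with these 3 annexins was between −0.07 and −0.02 over all libraries, but 0.636, 0.689 and 0.802 with Anxa1, Anxa2 and Anxa5 without CTRL replicate 3, and 0.224, 0.365 and 0.473 without the 2 farthest libraries. With all 10 libraries the remaining 12 pairs of members were not past an adjusted p of 0.05.

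The same annexins varied with summed markers of macrophages, fibroblasts and adipocytes. The macrophage list had counts for 6 of 8 markers, with Adgre1 and Cd163 at 0, and summed to 159.9 to 1006 CPM in CTRL and 41.5 to 285 CPM under the ASO. The fibroblast list had counts for 6 of 7, with Dcn at 0, and summed to 431 to 1829 CPM and 172 to 826 CPM. All 5 adipocyte markers had counts, with sums of 843 to 13270 CPM and 714 to 3619 CPM. In CTRL replicate 3, Dpt made up 1341 of the 1829 CPM of the fibroblast sum. Fabp4 made up 8770 of the 13270 CPM of the adipocyte sum there. Col1a1 was at 63.7 CPM in that library and reached 138 CPM in a treated one, and relations with single markers were not tested. Library CTRL 3 had the highest sum of each list and ASO replicate 5 the lowest, and these were also the highest and lowest libraries for Anxa1, Anxa2 and Anxa5. Of the markers tested, 2 of 6 for macrophages, 1 of 5 for fibroblasts and 0 of 5 for adipocytes were lower with the ASO and none was higher, beside 17.4% and 11.8% of all genes. These were Mrc1, C1qc and Lum, with log2 fold changes of −1.51, −1.61 and −1.72 (adjusted p = 0.0358, 0.0461 and 0.00135 by edgeR), whereas Cd68 and Col1a1 had 0.26 and 0.36 and were not past the threshold.

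Over the 10 libraries, after subtracting group means, the fibroblast sum and Anxa2 had r = 0.945 (rho 0.964), with p = 6.94e-05 for each, the smallest that exact permutation within groups can give. Adjusted over 30 relations of 6 members with 5 marker lists the value was 0.00208. Anxa1 and Anxa5 had r = 0.951 and 0.902 with the fibroblast sum (exact permutation, raw p = 5.6e-04 and 9.7e-04, adjusted p = 0.00556 and 0.00729; rho 0.915 and 0.964). With the macrophage sum, r was 0.956 for Anxa1, 0.814 for Anxa2 and 0.863 for Anxa5 (exact permutation, raw p = 1.4e-04, 0.00813 and 0.00326, adjusted p = 0.00208, 0.0269 and 0.0163; rho 0.964, 0.830 and 0.927). With the adipocyte sum it was 0.895, 0.909 and 0.876 (exact permutation, raw p = 0.0119, 0.00431 and 0.0112, adjusted p = 0.0297, 0.01845 and 0.0297, with rho 0.8545, 0.915 and 0.903). With the muscle fibre sum it was −0.93, −0.86 and −0.87 (exact permutation, raw p = 0.00201, 0.00896 and 0.00889, adjusted p = 0.0121, 0.0269 and 0.0269; rho −0.85, −0.78 and −0.81). The summed level of 6 endothelial markers had r of −0.0849, 0.0305 and −0.165 with Anxa1, Anxa2 and Anxa5 (exact permutation, adjusted p = 0.974, 0.974 and 0.901). With the 2 libraries of most extreme marker sum left out, r of these 3 annexins lay between 0.647 and 0.977 for the fibroblast and macrophage sums. For the adipocyte sum it was then 0.678 (Anxa1), 0.732 (Anxa2) and 0.606 (Anxa5). For Trim72, r was 0.104 with the fibroblast sum, 0.0147 with the macrophage sum and 0.177 with the fibre sum, with exact permutation adjusted p of 0.974, 0.974 and 0.901. Without CTRL replicate 3 these became 0.634, 0.472 and −0.472, and without the 2 libraries of most extreme marker sum 0.259, −0.0559 and −0.625, so r of Trim72 depended on which libraries entered, and these values have no p. The part of the marker levels in the decrease of Anxa5 was not tested.

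**Figure D4:**
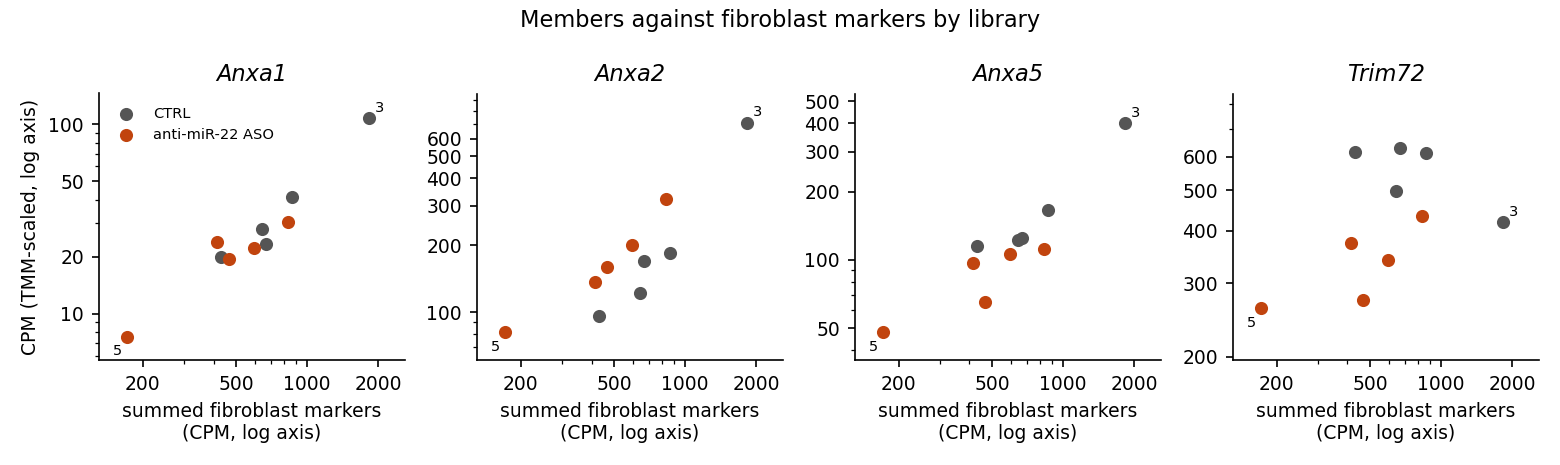
CPM of Anxa1, Anxa2, Anxa5 and Trim72 against the summed CPM of 7 fibroblast markers in each library, on log axes, CTRL in grey and anti-miR-22 ASO in orange; 3 marks CTRL replicate 3 and 5 marks ASO replicate 5. The annexins follow the marker sum from ASO replicate 5 (172 CPM) to CTRL replicate 3 (1829 CPM), and Trim72 has r = 0.104 with it after subtracting group means, or 0.634 without CTRL replicate 3.

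Of the 6 other annexins listed, 2 were tested. Anxa11 had the most counts of them, at 422 ± 54.4 CPM in CTRL and 517 ± 82.8 CPM under the ASO (SD over 5 libraries), and neither it (log2 fold change 0.29, adjusted p = 0.166) nor Anxa3 (−0.62, adjusted p = 0.226 by edgeR) was past the threshold. The 4 other ferlins had too few counts for a test. Of the S100 proteins listed as annexin partners, 5 of 11 were tested and 0 were called, the median log2 fold change was 0.22, and 1 had an unadjusted p under 0.05. This was S100a1, abundant in striated muscle and the gene with the most counts of the list, at 359 ± 65.9 CPM in CTRL and 473 ± 71.9 CPM under the ASO (log2 fold change 0.40, adjusted p = 0.0797 by edgeR). It passed the threshold under upper quartile scaling (adjusted p = 0.0439), with DESeq2 (0.0346) and without CTRL replicate 1 (0.0391). The S100a1 segment with nearly all its counts lies where S100a13, on the same list at 0 counts, and Gm56783 are annotated on the opposite strand. S100a10, the partner of Anxa2, had 122 ± 64.8 CPM in CTRL and 111 ± 42.6 CPM under the ASO, and S100a11, a partner of Anxa1, 186 ± 181 and 174 ± 82.0 CPM. CTRL replicate 3 was at 238 CPM for the former and 506 CPM for the latter.

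Among 30 partners of dysferlin and TRIM72 and vesicle fusion genes, 23 were tested. Of these, 5 were higher and 2 lower, beside 11.8% and 17.4% of all genes, together a share close to the 29.2% called. Their median log2 fold change was 0.28, and −0.03 over all genes tested. Bves, on that list, was matched through a synonym to Pop1, a different gene at 0 counts, and was itself not read. Cav3, the muscle caveolin that binds both dysferlin and TRIM72, rose from 129 to 220 CPM in CTRL to 347 to 476 CPM under the ASO (log2 fold change 1.22, SE 0.17, adjusted p = 4.4e-04 by edgeR). Its groups did not overlap, as for 7.97% of all genes tested in that direction. Mcoln1, a lysosomal calcium channel, rose by 1.22, Vcl (vinculin) by 0.60, Popdc3, a Popeye domain membrane protein, by 0.58 and Parvb (β-parvin, a dysferlin-binding protein) by 0.53, with adjusted p of 0.00821, 0.0397, 0.0194 and 0.0442 by edgeR. For Parvb and Popdc3 the segment at the most distal end had a larger change, of 0.99 and 1.05, where the median of all segments was 0.30. The calls of Vcl and Parvb were each lost when some single libraries were left out (adjusted p up to 0.0953 and 0.095), and those of Vcl, Parvb and Popdc3 under total-count scaling. All counts of Vcl lay on its most distal segment. It had 0.36 (adjusted p = 0.195) in the fit restricted to the most distal counted segment of every gene, which kept its counts and changed the scaling. In the fit of single segments it had 0.65 (adjusted p = 0.0254 by edgeR), beside a median of 0.30 over all segments at that position. Lgals1 (galectin-1) had the most counts of the list, at 2282 ± 774 CPM in CTRL and 3210 ± 653 CPM under the ASO, and was not past the threshold (adjusted p = 0.118, and 0.013 without CTRL replicate 3).

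The lower genes of that list were counted away from their transcript ends. Snap23, a SNARE protein of plasma membrane fusion, fell from 38.2 to 81.5 CPM in CTRL to 8.04 to 17.4 CPM under the ASO (log2 fold change −1.97, adjusted p = 3.4e-04 by edgeR). All its counts lay 4463 bp before its most distal segment (chr2:120426774-120427273), where 150 of 500 bp are annotated UTR of the transcript. Dnm2 (dynamin-2, a membrane-fission GTPase) had a log2 fold change of −2.11 (adjusted p = 0.00216), with 86.4% of its counts 40054 bp upstream, where 169 of 500 bp are annotated UTR. In Parvb, a segment 44370 bp upstream with 88 of 500 bp in annotated UTR had a log2 fold change of −2.70, opposite to its distal segment.

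In the calpain system, 4 of 9 genes were tested, with a median log2 fold change of 0.05. Capn2, the catalytic subunit of m-calpain and the gene with the most counts of the list, rose from 208 ± 58.3 CPM in CTRL to 353 ± 66.4 CPM under the ASO (SD over 5 libraries, log2 fold change 0.76, adjusted p = 0.0121 by edgeR), all on its most distal segment, and missed the threshold under total-count scaling (0.57, adjusted p = 0.0615) and in the fit restricted to the most distal counted segment of every gene (0.52, adjusted p = 0.0843). In the fit of single segments Capn2 had 0.81 (adjusted p = 0.00743 by edgeR), beside a median of 0.30 over all segments at that position. Capn10 had a log2 fold change of −1.15 (adjusted p = 0.0115) at 8.90 ± 2.74 and 3.99 ± 0.998 CPM, with 72.7% of its counts 2838 bp upstream. Capns1, the regulatory subunit, was at 103.7 ± 11.2 and 104.0 ± 15.4 CPM (adjusted p = 0.985).

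The ESCRT machinery pinches off and sheds damaged membrane, and of 20 listed genes 15 were tested, 5 higher and 3 lower, beside 11.8% and 17.4% of all genes, and their median log2 fold change was 0.03. Under total-count scaling, which moved the median of all genes by −0.18, 1 of the 5 higher genes stayed past the threshold, Chmp2a. In the fit of the most distal counted segment alone 0 were higher, with Ist1, Vps4a, Chmp7 and Chmp1a at 0.16 to 0.31 (adjusted p = 0.115 to 0.426 by edgeR), while Chmp2a, with 2 counts there, was not tested. All counts of Ist1, Vps4a, Chmp7 and Chmp1a already lay on that segment. For them this fit kept the counts and changed the scaling and the other genes fitted. In the fit of single segments they had 0.43 to 0.59 (adjusted p = 0.00824 to 0.018 by edgeR). All segments tested at the most distal end had a median of 0.30, and 25.2% were higher. The part of this shift in the values of these 4 genes was not tested. Chmp2a, Ist1, Vps4a, Chmp7 and Chmp1a rose by 0.72, 0.54, 0.47, 0.47 and 0.39 on the log2 scale. Each did so without overlap between the groups, as did 7.97% of all genes tested. Their adjusted p-values were 0.00447, 0.0117, 0.0122, 0.015 and 0.0236 by edgeR. Chmp4b, the main filament subunit and the gene with the most counts of the list, fell from 285 ± 30.2 CPM in CTRL to 181 ± 38.5 CPM under the ASO (SD over 5 libraries, −0.65, adjusted p = 0.0108), on its most distal segment. Chmp3 had −0.87 over its segments (adjusted p = 5.98e-04), made of −1.89 at a segment 21638 bp upstream of the distal end and −0.12 at one 1030 bp from it. Pdcd6ip (ALIX, which recruits ESCRT-III) had −0.44 (adjusted p = 0.0454), made of −0.71 at 2728 bp upstream and −0.01 at the distal end, and its call was lost in 16 of 22 alternative fits.

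**Figure D5:**
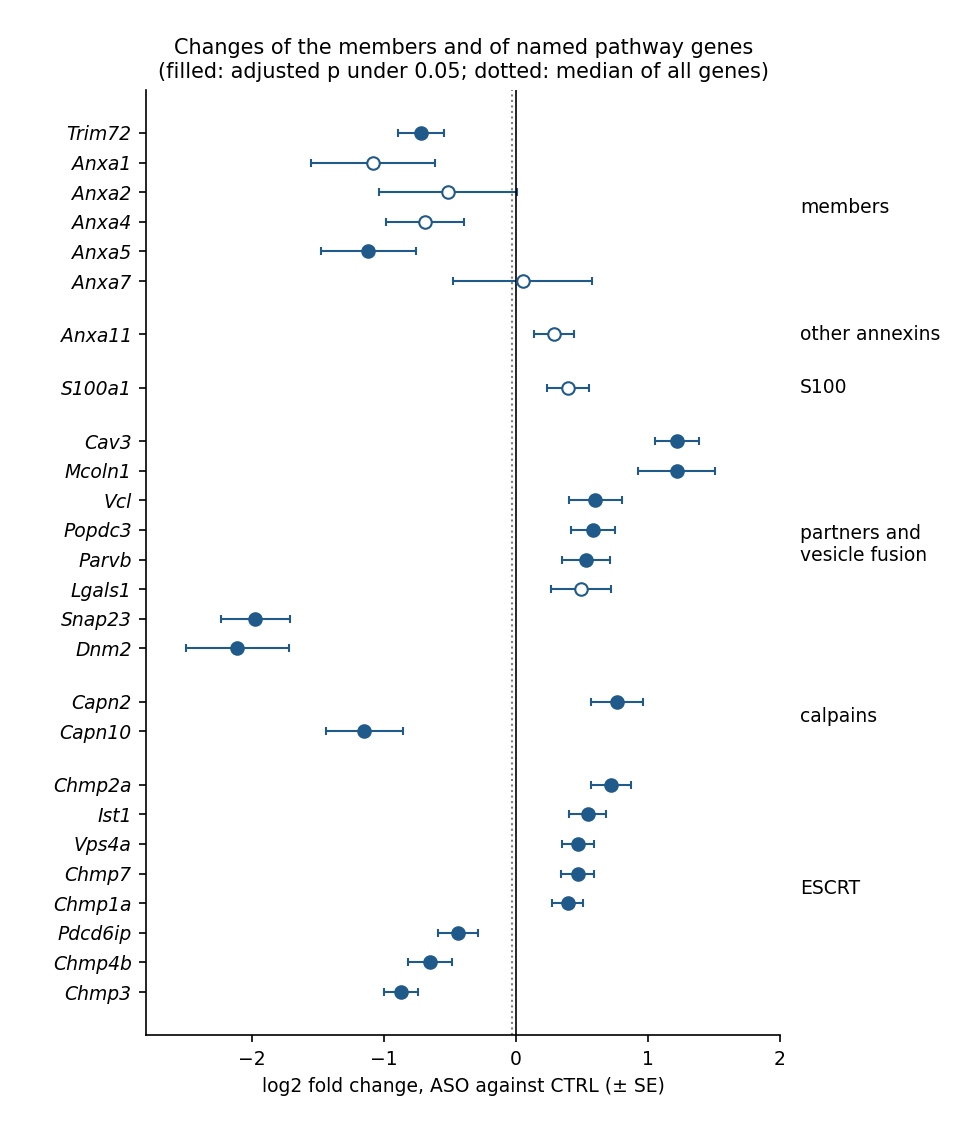
Log2 fold change (ASO against CTRL, ± SE) of the 6 tested members and of the pathway genes named by rule, filled where the adjusted p-value was under 0.05; the dotted line is the median of all genes tested, −0.03. Of the members, Trim72 (−0.72) and Anxa5 (−1.12) are filled, while Cav3 and Mcoln1 (1.22 each) are the highest and Dnm2 (−2.11) the lowest of the genes shown.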

How the data were processed

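RNA was measured in 5 ASO and 5 CTRL libraries of GAS, grouped by the treatment label, and 4 other per-sample columns were not used. The authors deposited raw counts of read pairs per 3′UTR segment, made by trimming with fastp, aligning to GRCm39 with STAR (up to 200 places per read) and counting with featureCounts on Gencode M25, for libraries of a stranded kit. Segments were assigned to genes with GENCODE M39 on GRCm39, coordinates being 1-based. Counted segments of Anxa11, Vcl, Mcoln1, Capn10, Ist1 and Vps4a also lie where another gene is annotated on the opposite strand. Of 52423 segments, 62 matched no gene and were left out with 0.0197% of the counts. Gene sums were filtered with filterByExpr, scaled by TMM and tested with edgeR 4.0.16 (quasi-likelihood, Benjamini-Hochberg, threshold 0.05) in R 4.3.3, a procedure tested on simulated data. The floor of 3 counts covers counting error only, while the SDs and SEs include the spread between libraries.

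Alternatives were RLE, upper quartile and total-count scaling, other filters (none, or at least 10 counts in every library), DESeq2 1.42.0, limma-voom (limma 3.58.1), the 20 highest genes left out, a replicate block, each library left out, the most distal counted segment only, segments shared with no other gene, and all libraries drawn down to 1606491 counts. Members and lists were chosen with earlier results of these data known. The genes named are all members, and from each list at most 8 past the threshold by smallest p plus the highest. S100a10, S100a11, Capns1, Anxa3 and the marker genes were named after their values were seen. Python 3.11.15 with scipy 1.17.1 ran the exact tests, two-sided, over 252 labellings for group differences and by permutation within groups for correlations. Protein sequences were not used here.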

Additional observations from a re-analysis of the deposited data

Results flagged for a closer look

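A library far from the other 4 of its group was sought for 26 genes in both groups. In 52 such sets of 5 values, 5 had a gap over range above 0.71, where chance flags about 1 in 20. Of these, 3 were CTRL replicate 3, which was the highest control for Anxa1 (107.7 CPM), Anxa2 (710 CPM) and Anxa5 (401 CPM). The others were Vcl in ASO replicate 3 (362 CPM), without which its log2 fold change was 0.43 (adjusted p = 0.078 in edgeR), and Chmp3 in ASO replicate 4 (73.1 CPM).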

How the results depend on the processing

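Trim72 kept its direction and its call in all 22 alternatives, and 0 members were higher in any. With the replicate block, 1 member was lower, Trim72 (−0.73, adjusted p = 0.0101 in edgeR), while Anxa5 lost its call (−0.98, adjusted p = 0.0656), beside 662 genes higher and 1172 lower. Correlations of deviations between libraries of the same number were −0.43, 0.0577, 0.0519, 0.0601 and 0.164, and gave no sign that the numbers pair the libraries. Libraries of unlike number were not compared, so a weak shared effect was not tested. Leaving out each library in turn left 1 to 2 members lower, 692 to 1021 genes higher and 1127 to 1369 lower. Total-count scaling gave 528 genes higher and 1819 lower, upper quartile scaling 1262 and 1206, against 920 and 1363 with TMM, and 2 members lower under each. Counting only the most distal counted segment gave 388 higher and 602 lower of 6075 genes tested. With each library left out, Anxa2 ranged from −0.83 to 0.33, positive without CTRL replicate 3, and Anxa7 from −0.14 to 0.50. Anxa7 turned negative under total counts (−0.12), on the most distal segment only (−0.16), and without ASO replicate 1 or 5 or CTRL replicate 2, 3 or 5, and the cause was not tested. Of the other values for single genes and lists under an alternative, 742 kept their side of the threshold or their count, 53 lost a call, 5 gained one and 17 list counts moved by over 1.5 times. Counts were lowest for Anxa7 and Anxa4, at 2 to 15 and 14 to 59 counts per library.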
